A study of Mus musculus with 14 samples.

Results

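Cells repair wrongly paired bases and broken chromosomes with separate but linked sets of proteins, and 41 genes that encode them were followed in lung tumors of KPY mice with and without Setd2. The genes were chosen by the known function of their proteins, with earlier results of these data known. Their rows were found among the 52550 genes of the count table through the GRCm38 annotation. All 41 passed the filter on low counts, under which 16836 genes were tested. They fall into 8 groups: mismatch repair (6 genes), checkpoint genes (6), chromatin signaling at breaks (4), end sensing and resection (4), homologous recombination (11), RecQ helicases (2), end joining (5) and Fanconi anemia (3).

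RNA was compared between 6 KPY-Ctrl and 8 KPY-Setd2KO tumors. All mice carried Trp53 flox/flox and Rosa26 LSL-YFP/LSL-YFP on a mixed strain background, so the tumors of both groups lacked p53 and were marked with a yellow fluorescent protein. A lentivirus that carried Cre, Cas9 and a guide RNA (LentiCRISPRv2Cre), given through the trachea, started the tumors, with a guide against beta-galactosidase (sgBGal) in KPY-Ctrl and one against Setd2 (sgSetd2) in KPY-Setd2KO. The study's methods describe microdissected tumors sorted for live fluorescent cells, whereas the sample labels describe RNA from cell lines and other kits, and this conflict was not resolved. Each tumor can carry its own Cas9 edit, some tumors came from the same mouse (which ones is not given), and the age of the mice at collection is not given in the sources used here, so p-values measure the spread between tumors and may be too small.

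Setd2 encodes the enzyme that trimethylates lysine 36 of histone H3 (H3K36me3) along transcribed genes. As background, this mark is read by a PWWP domain of the mismatch recognition protein Msh6, by Psip1, which brings the resection factor Rbbp8 to breaks, and by Morf4l1, a partner of Palb2. Atm and Atr are the kinases that sense breaks and stalled replication, and they act through Chek2 and Chek1. Brca1, Brca2 and Palb2 serve homologous recombination, in which a break is copied from the sister chromatid, and Prkdc, Xrcc5 and Xrcc6 form the complex that rejoins ends directly. These are known functions and none was measured here.

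Promoters of 4 of the 6 checkpoint genes are shown because every gene of this group had a lower mean in KPY-Setd2KO, together with that of Rnf168, the only member with an unadjusted p under 0.05 in the other direction. The windows run from 250 bases before to 50 bases after the RefSeq start site (GRCm38.p6, 5′ to 3′ along the gene). They are chr9:53536622-53536921 on the minus strand for Atm, chr9:95857347-95857646 on the plus strand for Atr, chr9:36726609-36726908 on the minus strand for Chek1, chr5:110839733-110840032 on the plus strand for Chek2 and chr16:32277211-32277510 on the plus strand for Rnf168. Capitals mark matches, on either strand, to a CCAAT box (the letters CCAAT), to the cell cycle homology region (spelled TTTGAA in one form and TTCGAA in the other) or to an E2F site (the form TTTGGCG first, the form TTTCGCG second and the form TTTCCCG last).
Atm: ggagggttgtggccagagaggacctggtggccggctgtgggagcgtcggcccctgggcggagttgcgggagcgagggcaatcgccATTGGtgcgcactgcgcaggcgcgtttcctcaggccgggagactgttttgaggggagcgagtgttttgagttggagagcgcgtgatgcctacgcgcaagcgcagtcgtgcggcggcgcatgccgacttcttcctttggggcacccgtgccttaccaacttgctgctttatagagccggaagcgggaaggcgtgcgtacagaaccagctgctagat
Atr: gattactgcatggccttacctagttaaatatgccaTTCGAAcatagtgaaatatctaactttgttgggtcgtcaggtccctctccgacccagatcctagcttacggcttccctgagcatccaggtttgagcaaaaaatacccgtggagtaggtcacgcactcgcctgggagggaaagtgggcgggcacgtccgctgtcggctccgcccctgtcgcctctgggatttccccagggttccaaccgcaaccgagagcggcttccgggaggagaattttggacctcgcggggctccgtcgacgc
Chek1: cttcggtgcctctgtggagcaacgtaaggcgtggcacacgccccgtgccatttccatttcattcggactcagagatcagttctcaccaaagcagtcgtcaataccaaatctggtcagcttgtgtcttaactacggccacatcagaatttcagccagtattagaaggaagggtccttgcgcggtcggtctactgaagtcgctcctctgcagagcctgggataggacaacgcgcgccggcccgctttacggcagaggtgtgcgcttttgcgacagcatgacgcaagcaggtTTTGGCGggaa
Chek2: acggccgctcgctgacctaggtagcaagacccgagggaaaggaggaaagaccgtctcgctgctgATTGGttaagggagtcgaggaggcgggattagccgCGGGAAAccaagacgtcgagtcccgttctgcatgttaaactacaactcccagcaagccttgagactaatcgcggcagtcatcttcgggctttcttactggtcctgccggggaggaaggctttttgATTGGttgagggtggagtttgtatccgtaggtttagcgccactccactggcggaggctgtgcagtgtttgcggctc
Rnf168: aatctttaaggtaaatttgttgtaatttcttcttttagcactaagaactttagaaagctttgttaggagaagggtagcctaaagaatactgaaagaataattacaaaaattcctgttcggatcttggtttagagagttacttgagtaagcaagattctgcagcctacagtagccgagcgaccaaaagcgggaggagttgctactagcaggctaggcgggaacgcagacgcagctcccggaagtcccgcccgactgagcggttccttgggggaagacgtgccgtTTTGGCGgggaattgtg

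Windows were found for 31 members (36 windows, since some genes have several starts). An E2F match stood in 41.7% of these windows, against 5.58% of all 32851 windows and 8.76% of the 13785 windows of other coding genes tested. A CCAAT box stood in 61.1% of the member windows, 37.4% of all windows and 37.2% of the windows of other coding genes tested. For the cell cycle homology region these shares were 11.1% (4 windows), 19.2% and 14.3%. In 1 member window matches to different motifs overlapped. Of the 5 windows printed above, those of Chek1, Chek2 and Rnf168 hold an E2F match, that of Atm holds only a CCAAT box and that of Atr only TTCGAA. The window of Atrip, which holds 1 CCAAT box, is not printed, and the table used here has no window for Wee1. A match is a run of letters and not a measured binding site.

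Per tumor, 27866266 to 51828846 counts were assigned to genes in KPY-Ctrl, 20072236 to 40604404 in KPY-Setd2KO, and the lowest count of any member in any tumor was 19. Normalized expression is given as CPM, counts scaled to the same effective library size by the TMM method. All 13 epithelial markers were detected in every tumor, with Sftpc, the surfactant gene of alveolar type 2 cells, at 3039 CPM or more. All 10 leukocyte markers were detected in every tumor as well, and their mean log2 CPM spanned 3.92 to 9.14 in KPY-Ctrl, 3.78 to 9.28 in KPY-Setd2KO. This score left the tumors in 2 sets that each held both genotypes, with KPY-Ctrl replicates 1, 2 and 6 and KPY-Setd2KO replicates 1 to 4 in the high set. T cell, B cell and neutrophil markers were low, at 11.1 CPM or less for every gene and tumor. The mean log2 CPM of 14 macrophage markers spanned 4.27 to 9.104 in KPY-Ctrl and 3.85 to 9.115 in KPY-Setd2KO.

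Setd2 RNA was set beside the labels, but it does not verify them tumor by tumor. It was 41.9 CPM in the lowest, 53.8 in the median and 63.6 in the highest KPY-Ctrl tumor, against 17.9, 30.4 and 47.4 CPM in KPY-Setd2KO. The highest KPY-Setd2KO tumors, replicates 2 and 4, lay within the control range. KPY-Setd2KO replicates 1 to 4, in the high set on the leukocyte-marker score, were at 32.7 to 47.4 CPM. The other KPY-Setd2KO tumors were at 17.9 to 28.2 CPM. In KPY-Ctrl the high and low sets overlapped, at 44.8 to 56.0 and 41.9 to 63.6 CPM. The log2 fold change of Setd2 was -0.74 (SE 0.22), and the quasi-likelihood test of edgeR gave an unadjusted p of 0.00486 and 0.175 after adjustment. Of the readers of the mark, Psip1 was at 50.5 ± 8.20 CPM (SD, n = 6) and 59.0 ± 10.7 CPM (SD, n = 8), and Morf4l1 at 331 ± 38.4 and 451 ± 136 CPM. Their log2 fold changes of 0.22 and 0.45 had adjusted p-values of 0.575 and 0.353 in edgeR, and the 4 highest Morf4l1 values were those of KPY-Setd2KO replicates 1 to 4, the leukocyte-rich tumors of that genotype.

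No member was called between the genotypes at an adjusted p of 0.05 in edgeR, nor was any other gene (0% of the 16836 tested). Below an unadjusted p of 0.05 stood 11 members, 10 with a lower and 1 with a higher mean in KPY-Setd2KO, which is 26.8% of the members against 13.7% of all genes tested (6.8% lower and 6.93% higher). The 10 were Msh3, Pms2, Atm, Atr, Chek1, Chek2, Wee1, Brca1, Prkdc and Fancd2. The log2 fold change was under 0 for 30 of 41 members, and their median was -0.24, while 52.7% of all genes lay above 0 and the median of all genes was 0.03. DESeq2, run on the same counts, called 2 members lower (Atm and Prkdc), with 3.34% of 20288 genes called (1.35% lower). In the plot of fold changes by group, the checkpoint genes lie furthest to the left and the end sensing genes on the zero line.

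**Figure D1:**
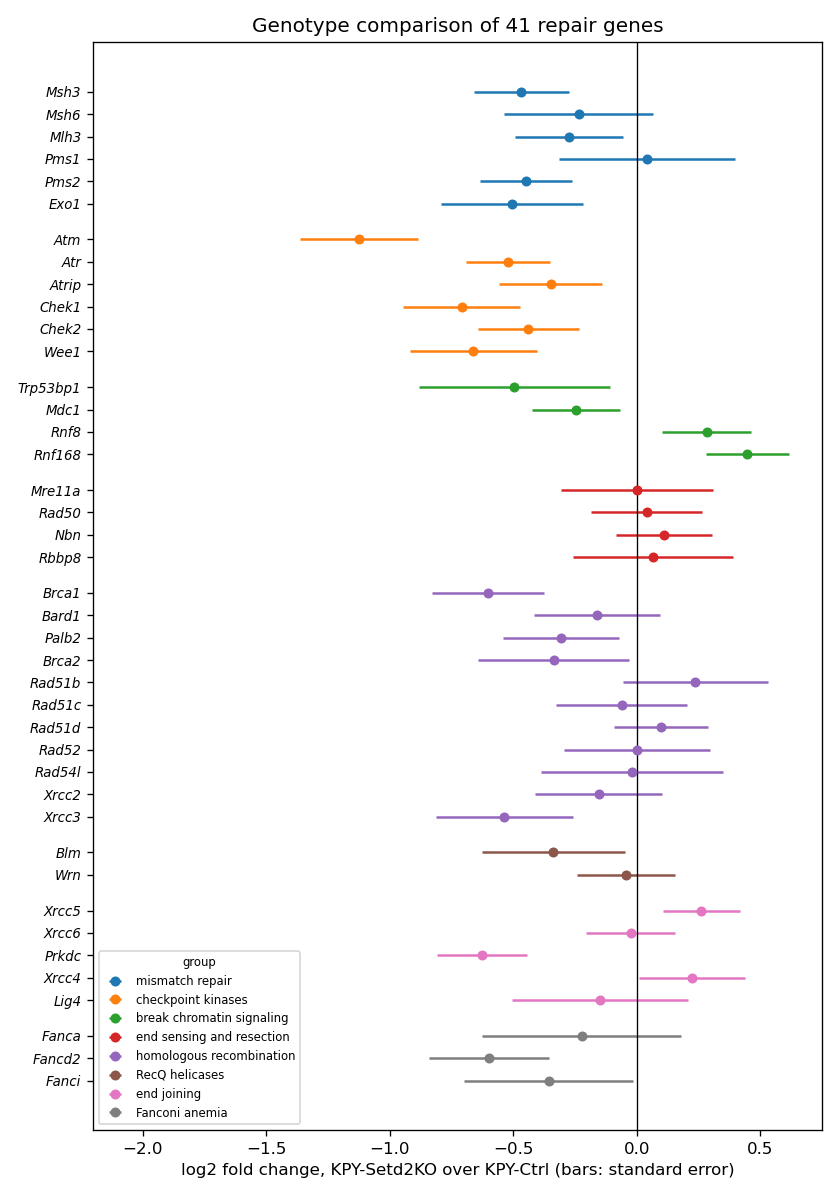
Log2 fold change of KPY-Setd2KO over KPY-Ctrl (x axis) for each of the 41 repair genes (rows, colored by group), with bars for the standard error (6 and 8 tumors). All 6 checkpoint genes lie below 0, from -1.12 for Atm to -0.35 for Atrip, and the 4 end sensing genes lie between 0.00 and 0.11. No gene had an adjusted p under 0.05 in edgeR.

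The checkpoint genes had log2 fold changes from -1.12 to -0.35, with a median of -0.59, and 5 of the 6 had an unadjusted p under 0.05. Atm was 9.86, 20.7 and 29.9 CPM in the lowest, median and highest KPY-Ctrl tumor and 6.95, 9.60 and 13.2 CPM in KPY-Setd2KO. The lowest control tumor, replicate 1, lay among the KPY-Setd2KO tumors, and the other 5 control tumors lay above all 8 of them. The log2 fold change of Atm was -1.12 (SE 0.24), a fold of 0.459, with an adjusted p of 0.116 in edgeR and 0.00328 in DESeq2. Without KPY-Ctrl replicate 1 it was -1.27 (adjusted p = 0.0684 in edgeR), and without KPY-Ctrl replicate 4 it was -1.003 (adjusted p = 0.303).

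Atr was 9.93, 15.7 and 16.5 CPM in KPY-Ctrl and 7.99, 10.2 and 13.3 CPM in KPY-Setd2KO. As for Atm, replicate 1 was the only control tumor inside the KPY-Setd2KO range, and the log2 fold change was -0.52 (SE 0.17, unadjusted p = 0.00828 and adjusted p = 0.208 in edgeR). Atrip, which tethers Atr to single-stranded DNA, averaged 6.01 ± 0.932 CPM in KPY-Ctrl (SD, n = 6) and 4.72 ± 1.20 CPM in KPY-Setd2KO (SD, n = 8), with overlapping groups and an unadjusted p of 0.117 in edgeR.

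Chek1, the kinase below Atr, was the only member whose groups did not overlap, which held for 0.57% of all genes tested (0.244% with the knockout below the control). It was 6.24, 7.17 and 7.72 CPM in the lowest, median and highest KPY-Ctrl tumor and 2.18, 4.21 and 5.97 CPM in KPY-Setd2KO. The KPY-Setd2KO tumors spread widely, with replicates 7 and 8 at 2.18 and 2.91 CPM. The log2 fold change was -0.71 (SE 0.24, unadjusted p = 0.00949 and adjusted p = 0.217 in edgeR). Its gene body (chromosome 9, 36708482 to 36727065, GRCm38) has a coding sequence of 1428 bases, the shortest of the checkpoint genes.

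Chek2, the kinase below Atm, was 11.3, 14.1 and 16.8 CPM in KPY-Ctrl and 5.65, 10.5 and 13.8 CPM in KPY-Setd2KO (log2 fold change -0.44, SE 0.20, adjusted p = 0.359 in edgeR). Wee1, which holds cells before mitosis by phosphorylating Cdk1, was 6.88, 14.2 and 18.8 CPM in KPY-Ctrl and 4.40, 9.37 and 11.3 CPM in KPY-Setd2KO. The 3 highest control tumors for Wee1 were the leukocyte-poor ones (replicates 3 to 5), and the lowest control value was again that of replicate 1. The log2 fold change of Wee1 was -0.66 (SE 0.26, adjusted p = 0.269 in edgeR).

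**Figure D2:**
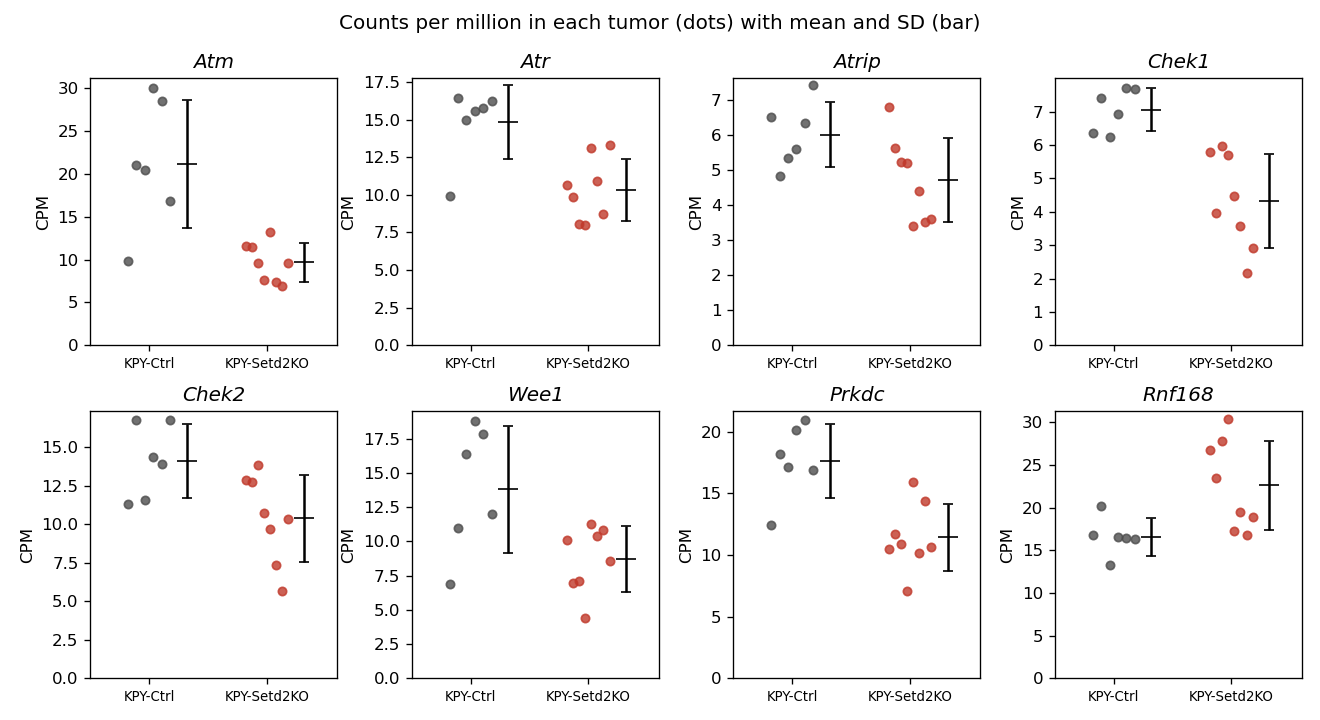
CPM (y axis, from 0) of the 6 checkpoint genes, Prkdc and Rnf168 in each KPY-Ctrl (gray, n = 6) and KPY-Setd2KO tumor (red, n = 8), with the mean and SD beside the dots. The groups are separate for Chek1 alone, from 6.24 CPM upward in KPY-Ctrl and up to 5.97 CPM in KPY-Setd2KO, and for Atm and Atr 1 low control tumor falls among the KPY-Setd2KO tumors.

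Of the end joining genes, Prkdc, the catalytic subunit of the DNA-dependent protein kinase, stood apart from its partners. It was 12.4, 17.6 and 21.0 CPM in KPY-Ctrl and 7.09, 10.8 and 15.9 CPM in KPY-Setd2KO, and KPY-Ctrl replicate 1 was again the lowest control tumor. The log2 fold change of Prkdc was -0.63 (SE 0.18), with an adjusted p of 0.164 in edgeR and 0.0486 in DESeq2. The genes of the Ku dimer that loads this kinase on DNA ends had log2 fold changes of 0.26 (SE 0.16, Xrcc5) and -0.02 (SE 0.18, Xrcc6), and neither had an unadjusted p under 0.05. Xrcc4 and Lig4, which seal the ends, had log2 fold changes of 0.23 (SE 0.21) and -0.15 (SE 0.36).

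The mismatch repair genes had log2 fold changes from -0.50 (Exo1, the exonuclease that removes the wrong strand) to 0.04 (Pms1). Msh3, which recognizes larger loops, had the smallest p of the group. It was 12.01, 20.3 and 26.2 CPM in KPY-Ctrl and 11.03, 14.4 and 19.1 CPM in KPY-Setd2KO, where all 8 tumors lay below the control median (log2 fold change -0.47, SE 0.19, adjusted p = 0.302 in edgeR). Pms2, the endonuclease subunit, gave -0.45 (SE 0.19, adjusted p = 0.305). Msh6, which reads H3K36me3, averaged 42.8 ± 17.4 CPM in KPY-Ctrl (SD, n = 6) and 36.4 ± 13.1 CPM in KPY-Setd2KO (SD, n = 8), with a log2 fold change of -0.24 (SE 0.30), so a difference was not resolved against the spread within each genotype.

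The chromatin signaling genes were split in direction. Rnf168, the ubiquitin ligase that spreads the mark for Trp53bp1, was 13.2, 16.5 and 20.2 CPM in KPY-Ctrl and 16.9, 21.5 and 30.4 CPM in KPY-Setd2KO. The 4 highest values, from 23.5 to 30.4 CPM, were those of the leukocyte-rich KPY-Setd2KO tumors, and the leukocyte-poor ones lay within the control range. Its log2 fold change was 0.45 (SE 0.17, unadjusted p = 0.0181 and adjusted p = 0.256 in edgeR). The ligase that acts before it, Rnf8, gave 0.28 (SE 0.18), whereas the scaffold Mdc1 gave -0.25 (SE 0.18) and Trp53bp1, the block on resection, -0.49 (SE 0.39), none with an unadjusted p under 0.05.

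The genes of end sensing and resection showed the smallest differences. The members of the complex that binds broken ends gave log2 fold changes of 0.00 (SE 0.31, Mre11a), 0.04 (SE 0.22, Rad50) and 0.11 (SE 0.19, Nbn). Rbbp8, which starts resection with that complex, gave 0.07 (SE 0.32). Nbn, the one with the smallest p, was 14.9, 19.2 and 27.0 CPM in KPY-Ctrl and 15.2, 21.8 and 29.9 CPM in KPY-Setd2KO, almost the same range, and its direction turned under scaling by library size alone (-0.04).

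In homologous recombination 9 of 11 members had a log2 fold change under 0, and only Brca1 had an unadjusted p under 0.05. Brca1 was 4.99, 8.56 and 12.8 CPM in KPY-Ctrl and 3.98, 5.49 and 7.71 CPM in KPY-Setd2KO (log2 fold change -0.60, SE 0.23, adjusted p = 0.257 in edgeR). Its highest value was in KPY-Ctrl replicate 6, the tumor with the highest proliferation score, and its lowest control value in replicate 1. The partners Bard1, Palb2 and Brca2 gave -0.16 (SE 0.25), -0.31 (SE 0.24) and -0.34 (SE 0.31), and Rad51b, Rad51c, Rad51d, Xrcc2 and Xrcc3 ranged from -0.54 (SE 0.28, Xrcc3) to 0.24 (SE 0.29, Rad51b). Rad52 and Rad54l gave -0.00 (SE 0.30) and -0.02 (SE 0.37).

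Of the RecQ helicases, which unwind recombination intermediates, Blm was 3.83, 4.72 and 7.71 CPM in KPY-Ctrl and 1.80, 4.64 and 5.97 CPM in KPY-Setd2KO (log2 fold change -0.34, SE 0.29, adjusted p = 0.673 in edgeR), with nearly equal medians, and Wrn gave -0.04 (SE 0.20). Fancd2, which is ubiquitinated together with Fanci at crosslinks, was 4.08, 4.42 and 5.73 CPM in KPY-Ctrl and 1.49, 3.03 and 4.71 CPM in KPY-Setd2KO (log2 fold change -0.60, SE 0.24, adjusted p = 0.297 in edgeR). Fanci and Fanca, a subunit of the ligase complex, gave -0.36 (SE 0.34) and -0.22 (SE 0.40).

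Per kilobase of exon, the members differed widely in level. Xrcc5 was highest at 23.3 RPKM over all tumors, followed by Msh6 (9.004), Xrcc6 (8.63), Nbn (8.52) and Rad50 (5.73). Atm, Prkdc and Atr, whose genotype differences are given above, were at 1.41, 1.07 and 0.518 RPKM. At the other end were Palb2 (0.247), Brca2 (0.342), Xrcc2 (0.361) and Exo1 (0.369). These levels use the summed exon length of the annotation, which overstates the transcript for genes with long alternative exons.

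Several measures were set beside the genotype comparison, and their values follow. The leukocyte-marker score averaged 6.75 ± 2.41 in KPY-Ctrl (SD, n = 6) and 7.105 ± 2.355 in KPY-Setd2KO (SD, n = 8). Of 7 endothelial markers 6 had a higher mean in KPY-Setd2KO, with a median log2 fold change of 1.04 (1.12 beside the leukocyte-marker score in the model). In edgeR 1 had an unadjusted p under 0.05 (14.3%, against 13.7% of all genes) and none was called. The mean log2 CPM of the endothelial markers ran from -1.14 up to 2.40 in KPY-Ctrl tumors, against 0.55 up to 3.15 for KPY-Setd2KO. Pecam1 and Vwf were at 5.60 CPM or more in every tumor. Emcn was under 1 CPM in 12 tumors, Kdr in 11, Tek and Cldn5 in 7 each and Cdh5 in 2. Cldn5 was at 0 in 1 tumor, so the median fold change of this list includes genes near the floor. The part of endothelial RNA in the member values was not tested. When the leukocyte-marker score entered the model as a covariate, edgeR called 2 members lower in KPY-Setd2KO, Atm (log2 fold change -1.07, adjusted p = 0.0202) and Prkdc (-0.60, adjusted p = 0.0345), with 5.24% of all genes called (2.23% lower). All 6 checkpoint genes then had an unadjusted p under 0.05 with a lower mean, as had 12.1% of all genes. When 1 tumor at a time was left out under this covariate, 0 members were called without KPY-Ctrl replicate 4 or 5 (136 and 204 genes called in all), 8 without KPY-Ctrl replicate 1 (1159 genes), 4 without KPY-Setd2KO replicate 1 (1241 genes) and 1 to 3 in the other fits. Atm remained called in 12 of 14 such fits and Prkdc in 6. DESeq2 with the same covariate called 7 members lower (Atm, Atr, Chek1, Wee1, Trp53bp1, Prkdc and Fancd2) and 1 higher (Rnf168), with 11.1% of 19830 genes called (5% lower and 6.14% higher).

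The proliferation score, the mean log2 CPM of 29 mitosis and replication genes that hold no member, averaged 4.63 ± 0.281 in KPY-Ctrl (SD, n = 6) and 4.36 ± 0.434 in KPY-Setd2KO (SD, n = 8). It was lowest in KPY-Setd2KO replicates 6 and 7 and highest in KPY-Ctrl replicate 6. In the leukocyte-rich tumors it ran from 4.60 to 5.09 and in the leukocyte-poor ones from 3.77 to 4.49. This score thus divided the tumors into the same 2 sets as the leukocyte-marker score, and fits with both scores cannot cleanly separate them. Of the 29 proliferation genes, 25 had a log2 fold change under 0 between the genotypes, with a median of -0.20. An unadjusted p under 0.05 was found for 3 of them in edgeR (10.3%, against 13.7% of all genes). With both scores as covariates no member was called in edgeR (0% of all genes), 2 members lay lower at an unadjusted p under 0.05 (Atm at -0.74 and Prkdc at -0.58, against 6.33% of all genes) and 2 higher (Rnf168 and Xrcc5, against 6.68%), and the median of the 41 was -0.06 against -0.24 without covariates. Chek1 was then at -0.41, Chek2 at -0.20, Brca1 at -0.25 and Fancd2 at -0.36, none of them under an unadjusted p of 0.05.

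Coding length was set beside the genotype comparison as well. The longest coding sequence of a member had a median of 2577 bases against 1377 for the 13827 other coding genes tested, and 17 members (41.5%) exceeded 3000 bases, as did 13.6% of the others. Among the other coding genes the median genotype log2 fold change was 0.10 for up to 1500 coding bases, -0.05 for 1500 to 3000, -0.17 for 3000 to 6000 and -0.34 above 6000 bases, where 23.0% had an unadjusted p under 0.05 with a lower mean in KPY-Setd2KO. The members' medians in the same ranges were -0.00, -0.02, -0.31 and -0.57, and the longest 4 were Prkdc, Atr, Atm and Brca2. Chek1, Chek2 and Wee1 have at most 1938 coding bases and lay below the medians of their ranges. This division was chosen after the values had been seen.

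**Figure D3:**
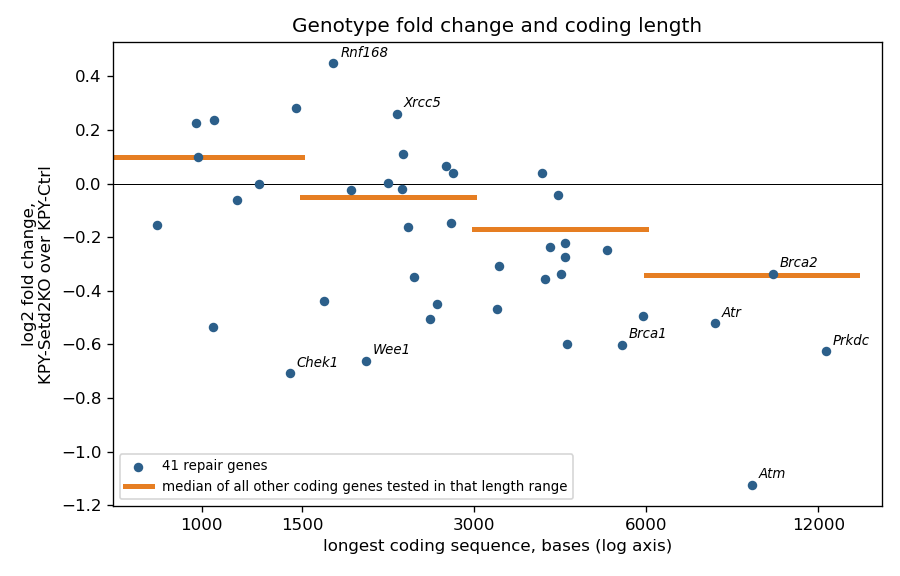
Genotype log2 fold change (y axis) of the 41 repair genes (blue dots) against their longest coding sequence in bases (x axis, log scale), with the median of all other coding genes tested in each of 4 length ranges (orange lines). The orange medians step down from 0.10 to -0.34 with length, Atm, Atr and Prkdc lie below the line of the longest genes and Brca2 on it, and Chek1 and Wee1 lie below the lines of shorter genes.

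For each tumor, the mean log2 CPM of genes with over 6000 coding bases minus that of genes with up to 1500 gave a long-gene score. In KPY-Ctrl it had a median of 0.35 and limits of -0.16 and 0.88, and in KPY-Setd2KO a median of -0.17 and limits of -0.56 and 0.81. KPY-Ctrl replicate 1 had the lowest score of its group and KPY-Setd2KO replicate 5 the highest of its own, the same tumors that were lowest among controls and highest among knockouts for Atm and Prkdc. With this score as a covariate no member was called in edgeR, 3.95% of all genes were, and 10 members lay lower at an unadjusted p under 0.05 (12.9% of all genes did), with Atrip, Blm and Fanca in place of Msh3, Pms2 and Wee1. Atm was then at -0.90 (adjusted p = 0.0542) and Chek1 at -0.84 (adjusted p = 0.0634). The long-gene score ran from -0.56 to 0.11 in the leukocyte-rich tumors and from 0.01 to 0.88 in the leukocyte-poor ones. It thus divided the tumors largely as the leukocyte score did. With the long-gene score alone, all 10 leukocyte markers had a lower mean in KPY-Setd2KO (median log2 fold change -1.66). With the leukocyte and long-gene scores together, 1 member lay lower at an unadjusted p under 0.05, as did 5.27% of all genes. Setd2 itself was at -0.90 with the long-gene score (adjusted p = 0.0511 in edgeR). It was at -0.47 with the leukocyte and long-gene scores together (unadjusted p = 0.0806 in edgeR). With the leukocyte-marker score alone, Setd2 was called lower in edgeR (-0.83, adjusted p = 0.0279) and in DESeq2 (-0.84, adjusted p = 0.00377). When 1 tumor at a time was left out under that covariate, Setd2 remained called in 10 of 14 edgeR fits. Whether transcript length, proliferation or leukocyte RNA accounts for the genotype differences of the members was not tested.

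More members were called on the leukocyte-marker score than between the genotypes. The slope on this score, with genotype in the model, was called for 20 of 41 members (48.8%) in edgeR, 12 rising and 8 falling with it, against 56.7% of all genes (28.4% rising and 28.3% falling). The share of members called was thus below that of genes at large. Under scaling by library size alone the split was 4 rising and 14 falling, and the median slope of all genes moved from -0.01 to -0.19. The share of all genes called under that scaling, or under both, was not counted. The 12 genes called in one direction under both scalings are named without a claim about the members as a set. Pms1, Mre11a, Rbbp8 and Rad54l rose, and Msh3, Msh6, Wee1, Trp53bp1, Mdc1, Rnf8, Rad52 and Lig4 fell. Because the tumors form 2 sets on this score, each slope is close to a contrast between those sets. In tumors sorted from tissue, RNA of other cells and a change within the tumor cells cannot be told apart.

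The largest slope was that of Trp53bp1, at -0.71 log2 units per SD of the score (SE 0.07, adjusted p = 6.44e-07 in edgeR). Its level was 45.7 to 47.0 CPM in the leukocyte-poor KPY-Ctrl replicates 3 to 5 and 15.6 to 22.8 CPM in the leukocyte-rich replicates 1, 2 and 6. In KPY-Setd2KO it was 11.5 to 15.1 CPM in replicates 1 to 4 and 19.6 to 47.9 CPM in replicates 5 to 8, so the sets were separate in both genotypes. Lig4, the ligase of end joining, had a slope of -0.61 (SE 0.09, adjusted p = 6.30e-05 in edgeR), with a median of 8.94 CPM in KPY-Ctrl and 7.33 CPM in KPY-Setd2KO. Msh6 had a slope of -0.53 (SE 0.08, adjusted p = 4.85e-05).

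In the other direction, Rad54l had a slope of 0.58 (SE 0.12, adjusted p = 0.000889), Pms1 0.57 (SE 0.10, adjusted p = 0.000268), Rbbp8 0.54 (SE 0.08, adjusted p = 4.63e-05) and Mre11a 0.53 (SE 0.07, adjusted p = 2.56e-05), all in edgeR. Rbbp8 was 25.7 to 35.0 CPM in the leukocyte-rich and 15.1 to 18.1 CPM in the leukocyte-poor KPY-Ctrl tumors, and 30.8 to 42.7 against 13.1 to 17.6 CPM in KPY-Setd2KO. Pms1 was 6.80 to 7.41 against 3.64 to 5.04 CPM in KPY-Ctrl, and 7.68 to 9.45 against 2.23 to 3.86 CPM in KPY-Setd2KO. For both genes the sets were separate in each genotype, while their genotype fold changes were near 0. Rad54l, a motor protein of recombination, was less even, at 4.56 to 8.48 against 2.33 to 3.09 CPM in KPY-Ctrl and 4.87 to 6.60 against 1.67 to 4.98 CPM in KPY-Setd2KO.

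**Figure D4:**
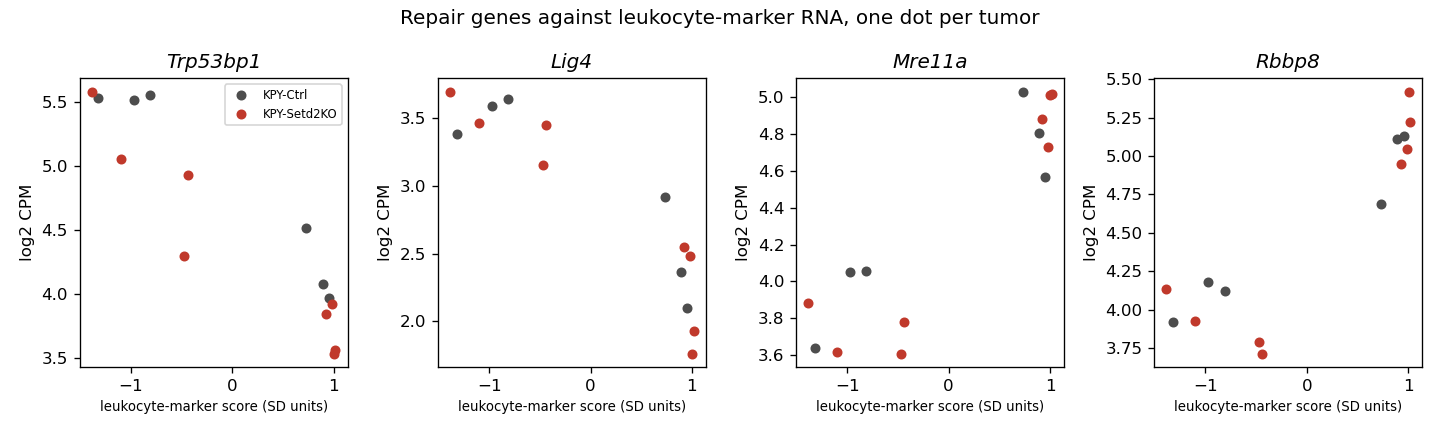
Log2 CPM (y axis) of Trp53bp1, Lig4, Mre11a and Rbbp8 against the leukocyte-marker score in SD units (x axis), 1 dot per tumor, KPY-Ctrl in gray (n = 6) and KPY-Setd2KO in red (n = 8). The tumors form 2 sets on the score, and Trp53bp1 and Lig4 are lower and Mre11a and Rbbp8 higher in the leukocyte-rich set of both genotypes.

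On the proliferation score, with genotype and the leukocyte score in the model, no member was called in edgeR (0% of all genes). The slope was above 0 for 34 of 41 members against 48.2% of all genes, and 8 members (19.5%, against 7.17% of all genes and 3.23% with a positive slope) had an unadjusted p under 0.05, all positive. They were Atm, Chek1, Chek2, Mre11a, Brca1, Brca2, Fanca and Fanci. The largest slopes were those of Fanci at 0.64 log2 units per SD (SE 0.25, adjusted p = 0.657), Fanca at 0.59 (SE 0.24, adjusted p = 0.665), Chek1 at 0.48 (SE 0.16, adjusted p = 0.584), Brca2 at 0.47 (SE 0.22, adjusted p = 0.693) and Atm at 0.43 (SE 0.19, adjusted p = 0.676), all in edgeR. Without KPY-Ctrl replicate 1, 3 members had an unadjusted p under 0.05, and without KPY-Setd2KO replicate 5 there were 5. For these fits the share of all genes was not counted. With genotype alone as covariate 19 members (46.3%) were called, 15 rising and 4 falling, against 41% of all genes (20.9% rising and 20.1% falling). The slope of Atm was then 0.02, and leaving out KPY-Setd2KO replicate 7 from the fit with both covariates gave 0.18 for Brca2 and 0.91 for Fanca.

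Fanci was 3.10, 5.31 and 6.80 CPM in the lowest, median and highest KPY-Ctrl tumor and 1.45, 4.59 and 6.53 CPM in KPY-Setd2KO, where replicates 6 to 8 had 3.18, 1.76 and 1.45 CPM. Fanca was 3.49, 4.01 and 5.07 CPM in KPY-Ctrl and 0.615, 3.29 and 6.31 CPM in KPY-Setd2KO, with replicate 6 the lowest. Brca2 was 3.32, 5.21 and 7.71 CPM in KPY-Ctrl and 1.35, 4.49 and 6.48 CPM in KPY-Setd2KO, with replicate 7 the lowest. The lowest Fanci value was that of replicate 8, and replicates 6 to 8 had the 3 lowest proliferation scores.

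**Figure D5:**
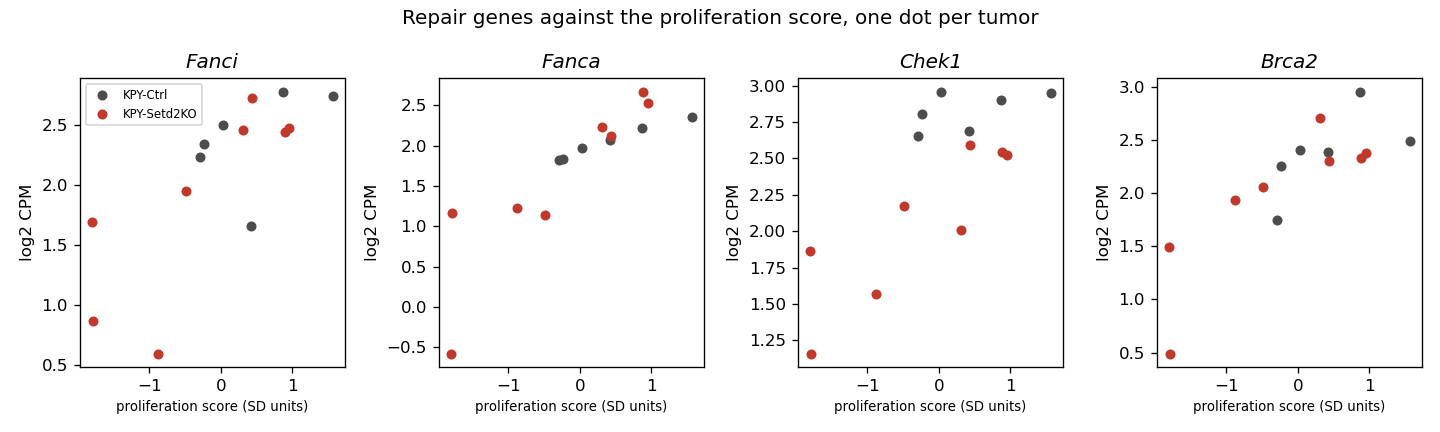
Log2 CPM (y axis) of Fanci, Fanca, Chek1 and Brca2 against the proliferation score in SD units (x axis), 1 dot per tumor, KPY-Ctrl in gray (n = 6) and KPY-Setd2KO in red (n = 8). The KPY-Setd2KO tumors with the lowest scores hold the single lowest level of each of the 4 genes, and all Chek1 values of KPY-Setd2KO lie below all those of KPY-Ctrl.

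A further 54 repair genes of the same and neighboring pathways gave 35 log2 fold changes under 0 and a median of -0.12 between the genotypes, with 6 lower and 1 higher at an unadjusted p under 0.05 (13%, against 13.7% of all genes) and none called in edgeR. The 6 were Fancb (-0.91), Rif1 (-0.62), Fancg (-0.53), Topbp1 (-0.47), Lig3 (-0.54) and Helq (-0.49). Fancb and Fancg are subunits of the same ligase complex as Fanca, Rif1 acts with Trp53bp1, and Topbp1 activates Atr. The 1 higher was Sfr1 (0.71), a recombination mediator.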

How the data were processed

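RNA of 6 KPY-Ctrl and 8 KPY-Setd2KO tumors was measured by RNA-seq. The deposited values are the authors' estimated counts for each Ensembl gene, made with Salmon 0.8.2 against GRCm38.p5 per the labels and given as whole numbers without normalization. In 8 values the table uses scientific notation with few digits. The authors' own comparisons were not used.

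Counts were rounded and fitted in edgeR 4.0.16 under R 4.3.3 (TMM scaling, filterByExpr by genotype, robust quasi-likelihood test, Benjamini-Hochberg adjustment over 16836 genes). Genotype was the only term, and a gene was called when its adjusted p was under 0.05. Slopes were fitted on the standardized mean log2 CPM (prior count 2) of leukocyte markers, with genotype, and of proliferation genes, with genotype and the leukocyte score. DESeq2 1.42.0, limma voom (limma 3.58.1), other scalings and filters, covariates, a replicate block and leaving out each tumor were alternatives. Replicate numbers were not taken as pairs in the main test. The procedure was tested on simulated data. Their dispersion was set below the common dispersion of the genotype fit (0.41), and their changes above any member's genotype log2 fold change. That test does not measure power for the members. Symbols, coordinates and lengths came from GENCODE for GRCm38, promoters from RefSeq (GRCm38.p6).

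Not every allele the mice carried is reported here. The members and lists were chosen with earlier results of these data known. Named with full values were Setd2, 2 readers of its mark, the gene of smallest p in each group, and the 5 largest fold changes and slopes on each score. The effect of depth was not tested.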

Additional observations from a re-analysis of the deposited data

Results flagged for a closer look

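Each member's log2 CPM was examined within each genotype for a tumor far from the others, in 88 groups of values (the 41 members and 3 genes of the H3K36me3 pathway in both genotypes). In 2 of them the gap of 1 tumor to its neighbor exceeded Dixon's critical value, fewer than the about 1 in 20 that chance gives. Atr was at a log2 CPM of 3.32 in KPY-Ctrl replicate 1, while the other control tumors lay between 3.91 and 4.05. Fanca was at a log2 CPM of -0.58 in KPY-Setd2KO replicate 6, while the other KPY-Setd2KO tumors lay between 1.15 and 2.67.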

How the results depend on the processing

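The 6 checkpoint genes kept a log2 fold change under 0 in every alternative run. The count of members called between the genotypes, 0 in the main test, was 2 in DESeq2 (677 of all genes called), 2 with the leukocyte-marker covariate in edgeR (882 genes; 0 to 8 members and 136 to 1241 genes when 1 tumor was left out, 3 members without KPY-Setd2KO replicate 7) and 8 with that covariate in DESeq2 (2209 genes). The count lower at an unadjusted p under 0.05, 10 in the main test, was 2 with leukocyte and proliferation covariates, 1 with leukocyte and long-gene covariates and from 6 to 11 when 1 tumor was left out. No share of all genes was counted for the fits that left out 1 tumor. The median of the members was -0.39 under library size alone, where the median of all genes was -0.11, and -0.062 with leukocyte and proliferation covariates. Members called on the proliferation slope numbered 0 in the main test and 19 with genotype as the only covariate (46.3%, against 41% of all genes). The second fit leaves out the leukocyte score, which divides the tumors into the same 2 sets. Nbn turned to -0.044 under library size alone, to -0.14 with the long-gene covariate and to -0.010 with the leukocyte covariate without KPY-Ctrl replicate 1. The causes were not tested.

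The replicate numbers were not taken to pair the tumors. Correlations of deviations from the group means within the 6 pairs ran from -0.66 to 0.66. They were positive for replicates 1, 2 and 5, whose tumors lay in the same set on the leukocyte-marker score. For replicates 3, 4 and 6, whose tumors lay in opposite sets, they were negative. These correlations therefore cannot show whether the tumors were paired. The replicate block left 4 members lower at an unadjusted p under 0.05, and the same 12 tumors unpaired left 7. Shares of all genes were not counted for either fit. Long-gene covariates, the fit of 12 tumors and leaving out tumors under the leukocyte covariate were chosen after seeing the data. The effect of depth on these results was not tested.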

Other observations

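Many members share a promoter region with a neighbor transcribed the other way. Start sites of such a pair lay within 1000 bases for 17 of 41 members (41.5%) and for 15.0% of the 13811 other coding genes tested. Atm and Npat, a coactivator of histone genes, start 307 bases apart, and Npat had a log2 fold change of -0.67 between the genotypes (unadjusted p = 0.0298, adjusted p = 0.304 in edgeR) beside -1.12 for Atm. Prkdc and Mcm4, a subunit of the replicative helicase, start 466 bases apart, with -0.63 and -0.21. Brca1 and Nbr1, an autophagy receptor, start 194 bases apart, with -0.60 and 0.00. Chek2 and Hscb, a chaperone of iron-sulfur clusters, start 202 bases apart, with -0.44 and 0.32, so the values of neighbors were alike in some pairs and unlike in others.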
